A study of Mus musculus with 18 samples.

Results

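The genes described here are 7 genes of contractile smooth muscle (Acta2, Actg2, Tagln, Myh11, Cnn1, Lmod1 and Des) and 2 genes of the CCN family of matricellular proteins (Ccn1 and Ccn2), 9 of the 54347 genes in the count table. They were picked by symbol after Acta2, Actg2 and Ccn2 had come out higher in knockout than in wild type epididymal fat under some tests of the same data. The comparison of genotypes in epididymal fat therefore chose them, and its values are given below as a description without a test. All 9 passed the filter on low counts, together with 18728 genes in all.

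Polyadenylated RNA was sequenced from interscapular brown (iBAT), inguinal white (iWAT) and epididymal white adipose tissue (eWAT) of 6 mice aged 12 weeks on the C57BL/6N background. Of these, 3 were wild type (wt) and 3 were ΔGm15551 litter mates, in which CRISPR/Cas9 had removed exon 1 of the long noncoding RNA Gm15551 (knock-out, ko). Each mouse gave all 3 tissues, which resulted in 18 libraries in 6 groups of 3, and a replicate number within a genotype stands for the same mouse in every tissue. The mice were kept on chow. The knock-out comes from 1 line and is carried by every cell of the animal.

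Libraries held 14997901 to 34389586 estimated counts, eWAT ko replicate 3 being the shallowest and eWAT ko replicate 2 the deepest. The targeted gene separated the genotypes as labelled, with 40 to 316 counts of Gm15551 in wt libraries and 0 to 4 in ko libraries. Some libraries carried RNA of neighbouring tissue. The summed level of 11 epididymis genes reached 5095 CPM (counts relative to the library total after scaling) in eWAT ko replicate 3 and at most 35.4 CPM in the other eWAT libraries. The summed level of 13 skeletal muscle genes reached 5216 CPM in iWAT ko replicate 1 and at most 63.0 CPM in the other iWAT libraries. The 9 lymph node genes reached 1065 CPM in iWAT wt replicate 3 and 455 CPM in iWAT ko replicate 2. Median differences of the 9 members in eWAT and in iWAT, and some for single members, are also given below without these libraries.

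In adipose tissue, contractile smooth muscle cells lie mainly in the walls of arteries, arterioles and veins, and pericytes on capillaries share part of their gene programme. Contractile genes are driven by serum response factor (SRF) together with myocardin or the myocardin-related factors, which respond to the state of the actin cytoskeleton. CCN1 and CCN2 are secreted proteins of the extracellular matrix whose genes respond to stretch, growth factors and injury, in large part through YAP and TAZ with the TEAD factors. Because whole tissue was sequenced, fewer cells of a type and less RNA per cell cannot be told apart in any of the values below.

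The actin genes were examined first in eWAT. Acta2 (ENSMUSG00000035783, minus strand, chr19:34241090-34255590 in GRCm38) encodes smooth muscle alpha actin, the main actin of vascular smooth muscle. It stood at 78.9, 49.6 and 47.8 CPM in wt replicates 1, 2 and 3 of eWAT and at 114, 315 and 94.3 CPM in ko replicates 1, 2 and 3. All 3 ko libraries lay above all 3 wt libraries, and ko replicate 2 lay 2.76-fold above the next highest library. Acta2 was the 1 member of 9 without overlap between the genotypes in eWAT, where 2.94% of all genes tested were higher in ko without overlap. The fitted difference between ko and wt eWAT was 1.57 on the log2 scale (2.97-fold). It was 0.82 (1.76-fold) without ko replicate 2 and 1.87 (3.65-fold) without ko replicate 3.

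Actg2 (ENSMUSG00000059430, minus strand, chr6:83512905-83536265) encodes smooth muscle gamma actin, the actin of visceral smooth muscle such as that of gut and ducts. It was low, at 1.49, 0.582 and 0.296 CPM in the wt libraries and 1.20, 24.9 and 4.95 CPM in the ko libraries of eWAT. Ko replicate 2 lay 5.03-fold above ko replicate 3, and ko replicate 1 lay below wt replicate 1. The log2 difference of 3.70 (13-fold) fell to 1.93 (3.81-fold) without ko replicate 2 and rose to 4.03 (16.3-fold) without ko replicate 3. With ko replicates 2 and 3 both left out it was 0.58. Without wt replicate 1 it was 4.54.

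The remaining contractile genes were also highest in ko replicate 2. Tagln (ENSMUSG00000032085, chr9:45929619-45936058) encodes transgelin, an actin-bundling protein also called SM22 alpha. It stood at 54.3, 49.4 and 49.8 CPM in wt and 74.1, 225 and 49.6 CPM in ko eWAT, so that ko replicate 3 lay within the range of wt. Myh11 (ENSMUSG00000018830, chr16:14194535-14291372), the smooth muscle myosin heavy chain and the most specific marker of the lineage, stood at 83.6, 51.9 and 42.4 CPM in wt and 93.9, 261 and 78.9 CPM in ko. For both genes ko replicate 2 was 3.04-fold and 2.78-fold above the next library, and ko replicate 3 did not exceed the highest wt library. The log2 differences were 1.19 for Tagln and 1.29 for Myh11, and without ko replicate 2 they were 0.26 and 0.53.

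Cnn1 (ENSMUSG00000001349, chr9:22099216-22109630) encodes calponin 1, an actin-binding inhibitor of myosin activity. Its levels in eWAT were 3.25, 1.26 and 0.346 CPM in wt and 2.40, 30.7 and 7.33 CPM in ko. Together with Actg2 and Acta2 it was 1 of the 3 members for which ko replicate 3 exceeded every wt library. Its log2 difference was 3.05, against 1.56 without ko replicate 2, 3.35 without ko replicate 3 and 4.06 without wt replicate 1. Lmod1 (ENSMUSG00000048096, chr1:135324807-135368065) encodes leiomodin 1, which nucleates actin filaments in smooth muscle. It stood at 11.5, 10.5 and 7.90 CPM in wt and 13, 29.5 and 10.2 CPM in ko. Des (ENSMUSG00000026208, chr1:75360329-75368579) encodes the intermediate filament protein desmin of all muscle types and of pericytes. It stood at 33.3, 23.1 and 23.1 CPM in wt and 29.9, 55.6 and 23.9 CPM in ko. Ko replicate 2 was the highest library for both genes, ko replicate 3 lay within the wt range, and without ko replicate 2 the log2 differences of 0.82 and 0.46 were 0.21 and 0.01.

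The CCN genes were examined next. Ccn1 (ENSMUSG00000028195, formerly Cyr61, chr3:145646976-145649981) stood at 29.4, 13 and 10.7 CPM in wt and 31.9, 51.7 and 24.8 CPM in ko eWAT. Ccn2 (ENSMUSG00000019997, formerly Ctgf, chr10:24595442-24598683) stood at 43.2, 9.51 and 12.9 CPM in wt and 59.1, 80.0 and 21.1 CPM in ko. In both genes wt replicate 1 was well above the other wt libraries and above ko replicate 3, while ko replicate 2 was highest by 1.62-fold and 1.35-fold only. The log2 difference of Ccn2 was 1.29 (2.44-fold). It was 0.86 (1.82-fold) without ko replicate 2, 1.67 (3.17-fold) without ko replicate 3 and 2.25 without wt replicate 1. For Ccn1 the values were 1.03 with all libraries, 0.67 without ko replicate 2 and 1.61 without wt replicate 1.

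**Figure D1:**
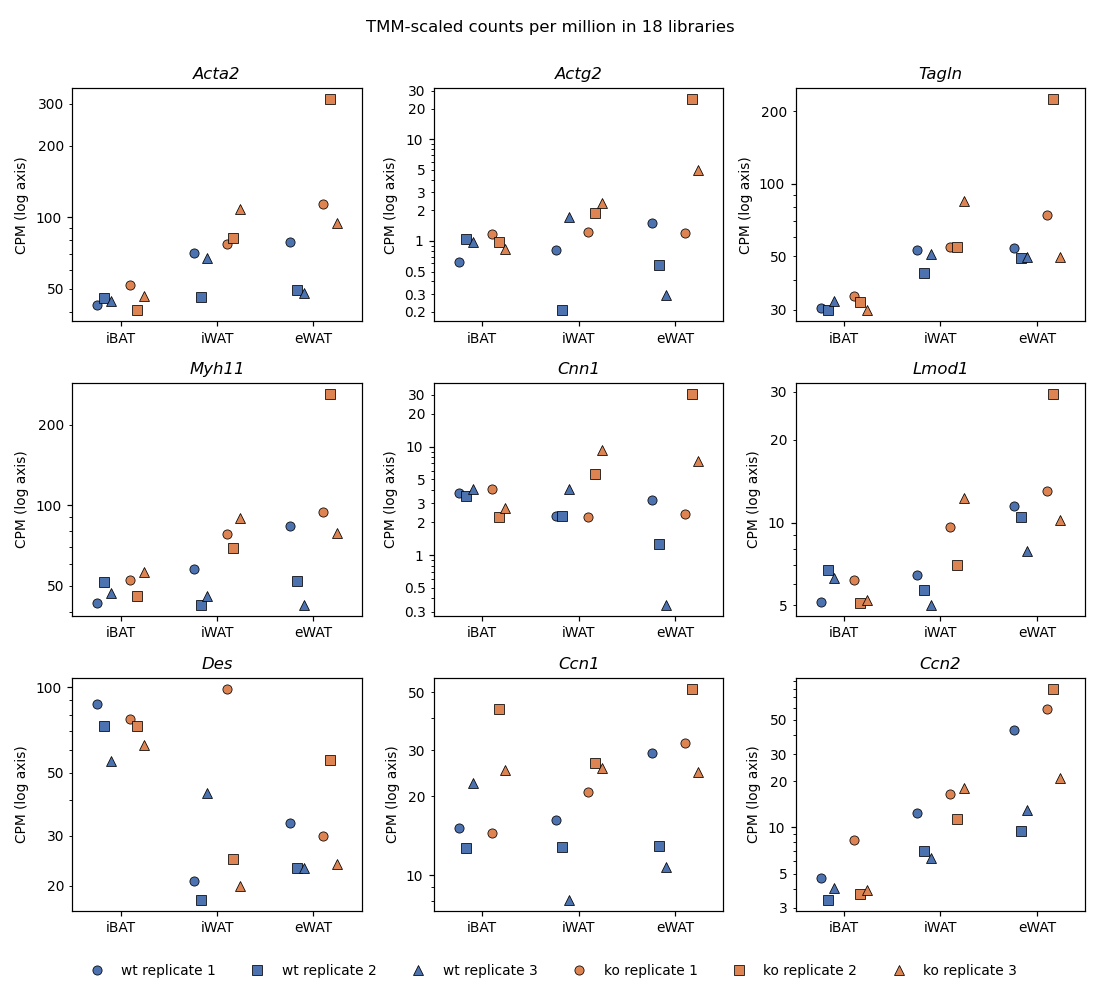
TMM-scaled CPM (log axis) of the 9 genes in each of the 18 libraries, by tissue, with wt in blue and ko in orange and the marker shape giving the replicate number. In eWAT the orange square (ko replicate 2) is the highest point for all 9 genes, while the orange triangle (ko replicate 3) lies above every wt library for Acta2, Actg2 and Cnn1.

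The 9 members thus had their highest eWAT value in ko replicate 2, a library in which 10.02% of all genes tested were highest. None of the 9 had it in ko replicate 3, in which 32.6% of all genes were highest. Ko replicate 2 exceeded every wt library for 9 members (19.6% of all genes tested), ko replicate 1 for 6 (26.3% of all genes) and ko replicate 3 for 3 (35.7% of all genes). With ko replicate 2 left out, 1 member was without overlap between the genotypes, beside 8.03% of all genes that were then higher in ko without overlap. With ko replicate 3 left out it was 6 members, beside 8.57% of all genes. The median log2 difference of the 9 members was 1.29, beside 0.0052 over all genes tested, and leaving out 1 eWAT library at a time gave 0.67 to 1.61. The lowest of these medians came from the fit without ko replicate 2 and the highest from the fit without wt replicate 1. Without ko replicate 3, the library with epididymis RNA, the median was 1.58.

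**Figure D2:**
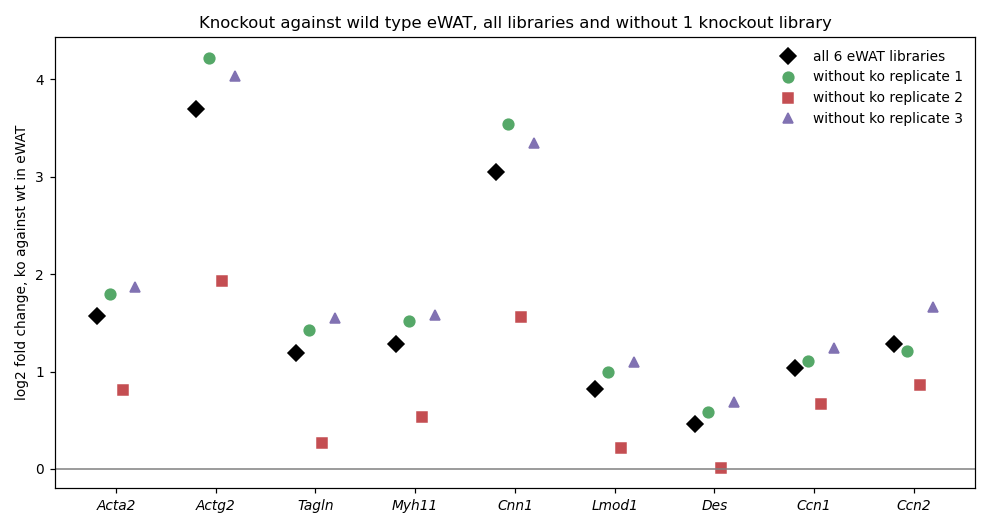
Log2 fold change of ko against wt in eWAT (vertical axis) for each of the 9 genes, with all 6 eWAT libraries (black diamonds) and without ko replicate 1, 2 or 3. The red squares (without ko replicate 2) are the lowest values for every gene, from 0.01 for Des to 1.93 for Actg2, and the violet triangles (without ko replicate 3) lie above the black diamonds.

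The markers of other tissues and cells in ko replicate 2 were examined next. The 11 epididymis genes summed to 0.898 CPM there, 7 of them at 0 counts, and the 10 testis and sperm genes summed to 0.558 CPM. The 13 skeletal muscle genes summed to 42.2 CPM, within the range of 16.9 to 54.2 CPM in eWAT. Mesothelium genes, which line the surface of epididymal fat, summed to 86.1 CPM (74.3 to 136 in all 6 libraries). The 6 adipocyte genes summed to 20956 CPM, close to the median of 20544 CPM, whereas they were at 9440 CPM in ko replicate 3. In the other eWAT libraries the epididymis genes summed to 0.485 to 5095 CPM, and the testis and sperm genes to 0.593 to 126 CPM. The part of tissue carried along in the smooth muscle levels of ko replicate 2 was not tested.

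Genes of blood vessels were less uniform. The 9 pericyte genes summed to 1450 CPM in ko replicate 2, below the 1497 CPM of ko replicate 1. Of the 9, 4 were highest in ko replicate 1 and 3 in ko replicate 2, beside 18.2% and 10.02% of all genes. In ko replicate 2, Rgs5 stood at 453 CPM (344 to 441 CPM in wt) and Mcam at 541 CPM (456 to 533 CPM in wt). Notch3 stood at 149 CPM in ko replicate 2 (92.0 to 131 CPM in wt). The 7 endothelial genes reached their highest sum there, 1271 CPM against 541 to 1096 CPM in the other libraries. The most abundant of them, Cdh5 (VE-cadherin), stood at 351 CPM, within its wt range of 309 to 372 CPM, and Pecam1 at 291 CPM (236 to 265 CPM in wt). Vwf, the von Willebrand factor gene, was singled out after its values were seen. It stood at 229.7 CPM in ko replicate 2 and at 54.3 to 62.0 CPM in wt, 82.1 CPM in ko replicate 1 and 55.9 CPM in ko replicate 3. The part of these cell types in the result was not tested.

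Other contractile genes followed the members in part. The summed level of 20 further smooth muscle genes was 1895 CPM in ko replicate 2 and 1090 to 1597 CPM in the other eWAT libraries, and 13 of the 20 were highest there. Myl9, the regulatory light chain of smooth muscle myosin and not among the 4 most abundant genes of the list, stood at 158 CPM in ko replicate 2 and at most 71.1 CPM elsewhere in eWAT. The 4 most abundant genes moved less. Flna (filamin A) stood at 227 to 330 CPM in wt and at 406, 435 and 292 CPM in ko, Mylk (myosin light chain kinase) at 195 to 258 CPM in wt and 225, 271 and 333 CPM in ko. Cald1 (caldesmon) was highest in ko replicate 1 at 183 CPM, with 163 CPM in ko replicate 2. Tpm1 (tropomyosin 1) stood at 149 CPM in ko replicate 2, with 63.3 to 91.4 CPM in the remaining eWAT libraries. The median log2 difference of all 20 between ko and wt eWAT was 0.30, beside 1.29 for the members.

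Of the factors upstream, Srf stood at 24.9 to 33.0 CPM in wt and 34.8, 33.6 and 28.9 CPM in ko eWAT, and Mrtfb at 32.6 to 44.9 CPM in wt and 35.6, 35.9 and 21.4 CPM in ko. Mrtfa stood at 19.7 to 23.5 CPM in wt and 22.4, 27.5 and 20.6 CPM in ko. Myocd, which encodes the smooth muscle coactivator myocardin, was low. It stood at 0.198 to 0.264 CPM in wt, near the limit of detection, and at 0.386, 0.898 and 0.594 CPM in ko. The 4 genes together summed to 97.9 CPM in ko replicate 2, their highest value in eWAT, against 94.3 CPM in wt replicate 1.

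The rest of the CCN family was low. Ccn3 stood at 2.82 to 3.34 CPM in wt eWAT and 5.58, 21.1 and 2.82 CPM in ko, and Ccn5 at 0.34 to 3.21 CPM in wt and 2.70, 14.9 and 2.33 CPM in ko. Both were highest in ko replicate 2, as the members were. Ccn4 did not exceed 1.54 CPM and Ccn6 did not exceed 0.146 CPM in eWAT. The YAP and TEAD target signature without Ccn1 and Ccn2 behaved otherwise, since 2 of its 19 genes were highest in ko replicate 2 and its sum of 845 CPM there was below the 929 CPM of ko replicate 1. Its most abundant gene, Amotl2, stood at 299 CPM in ko replicate 2, below its wt range of 303 to 364 CPM. Axl stood at 79.7 CPM (57.3 to 77.4 CPM in wt), Ptpn14 at 68.3 CPM (54.8 to 65.5 CPM) and Lats2 at 50.3 CPM (47.6 to 54.9 CPM). The median log2 difference of this list in eWAT was -0.0036. Yap1 and Wwtr1 (TAZ) themselves stood at 86.5 and 127 CPM in ko replicate 2, against 83.7 to 89.5 and 109 to 122 CPM in wt.

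**Figure D3:**
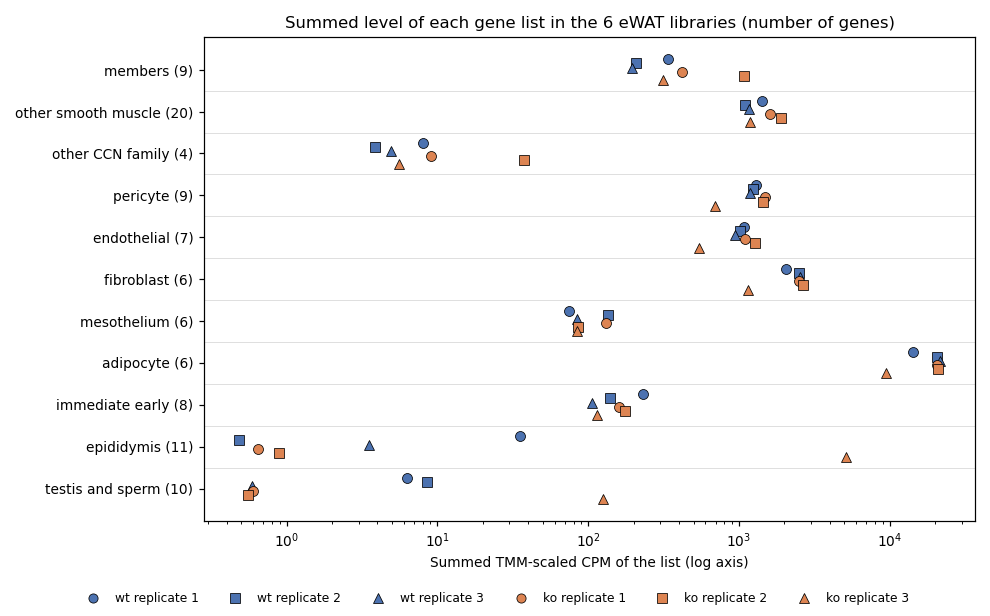
Summed TMM-scaled CPM (log axis) of each gene list in the 6 eWAT libraries, with the number of genes in brackets, wt in blue, ko in orange and the marker shape giving the replicate number. Ko replicate 2 stands apart for the 9 members at 1073 CPM and for the other CCN genes at 37.4 CPM, and ko replicate 3 stands apart for the epididymis genes at 5095 CPM.

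The other tissues of the mouse that gave eWAT ko replicate 2 were examined next. In iBAT and in iWAT, 0 of the 7 smooth muscle members were highest in ko replicate 2. In iBAT it held the lowest value of Acta2 (40.5 CPM), Cnn1 and Lmod1. In iWAT its rank from the top was 2 for Acta2 (82.0 CPM), Actg2, Tagln and Cnn1 and 3 for Myh11, Lmod1 and Des, and it lay above every wt library for 6 of the 7, Des being the exception, beside 18.3% of all genes tested. Ccn1 differed, since ko replicate 2 held its highest value in iBAT (43.1 CPM) and in iWAT (26.9 CPM) as well. In iBAT the immediate early genes, which rise within minutes of handling or injury, were also highest in ko replicate 2, with a sum of 325 CPM against 89.7 to 227 CPM in the others. In eWAT their sum was highest in wt replicate 1 (233 CPM), the wt library with the highest Ccn1 and Ccn2. In ko replicate 2 of eWAT it was 176 CPM. Of the 8 genes, 3 were highest in that library, beside 10.02% of all genes tested. Among the 3 were Fos at 17.5 CPM (4.69 to 5.32 CPM in wt) and Egr1 at 51.9 CPM (18.4 to 36.8 CPM in wt). Jun, the most abundant, stood there at 59.2 CPM, within its wt range of 44.3 to 137 CPM. The part of these genes in the values of Ccn1 and Ccn2 was not tested.

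Next, the genotypes were compared in iWAT. The genes were picked on eWAT values, but with earlier results of all tissues known, and the iWAT libraries come from the same 6 mice. All 9 members had a higher mean in ko than in wt iWAT, but none passed the test, in which 0% of all genes were called (edgeR quasi-likelihood F-test, adjusted p = 1 for every member). At an unadjusted p under 0.05 there were 415 of all genes and 2 of the members. DESeq2 called 4 genes of all and 0 members. Acta2 stood at 70.7, 46.0 and 67.2 CPM in wt and 77.4, 82.0 and 108 CPM in ko iWAT, and Myh11 at 57.6, 42.2 and 45.9 CPM in wt and 77.8, 69.1 and 89.3 CPM in ko. Lmod1 stood at 6.46, 5.67 and 5.01 CPM in wt and 9.67, 7.01 and 12.3 CPM in ko. In these 3 genes the genotypes did not overlap, as in Tagln and Ccn1, which makes 5 of the 9 members beside 2.80% of all genes tested.

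The fitted log2 differences in iWAT were 0.54 ± 0.35 for Acta2, 0.70 ± 0.35 for Myh11, 0.40 ± 0.38 for Tagln and 0.76 ± 0.33 for Lmod1 (± SE, n = 3 and 3). Of these, that of Lmod1 was below an unadjusted p of 0.05 in edgeR and the others were not. Ccn1 stood at 16.2, 12.8 and 8.05 CPM in wt and 20.8, 26.9 and 25.6 CPM in ko, a log2 difference of 0.99 ± 0.44 with an unadjusted edgeR p of 0.0394. Ccn2 stood at 12.4, 7.05 and 6.33 CPM in wt and 16.5, 11.4 and 18.1 CPM in ko, a log2 difference of 0.84 ± 0.55 that was within the spread between replicates (edgeR, unadjusted p = 0.147). Ko replicate 2 fell within the wt range of Ccn2, and the other ko libraries lay above it.

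In iWAT the highest value was found in ko replicate 3 for 7 of the 9 members, whereas 16.4% of all genes were highest there. The 6 mesothelium genes also had their highest sum in iWAT in that library, 54.8 CPM against 3.12 to 35.5 CPM in the others. Of this sum, 50.6 CPM came from Krt19, a keratin of many epithelia, while Upk3b was at 0 counts. Msln reached at most 2.20 CPM and Lrrn4 at most 2.05 CPM in iWAT. Of the 6 mesothelium genes, 2 were highest in ko replicate 3. The part of this signal in the members' values was not tested. Tagln stood at 84.9 CPM in ko replicate 3, with 42.8 to 54.7 CPM in the others. Actg2 and Cnn1 were low and overlapped, with Actg2 at 0.207 to 1.71 CPM in wt and 1.24 to 2.38 CPM in ko, and Cnn1 at 2.28 to 4.06 CPM in wt and 2.24 to 9.32 CPM in ko. Des was highest in ko replicate 1, which held 99.1 CPM against 17.8 to 42.4 CPM in the other 5 libraries. This was the library with 5216 CPM of skeletal muscle genes, a tissue that expresses desmin. The part of skeletal muscle RNA in the Des values was not tested. Without that library the log2 difference of Des turned from 0.83 to -0.27. The other 8 members kept a positive difference under every alternative computed. The median difference of the 9 members in iWAT was 0.83 on the log2 scale (range 0.40 to 1.0). It was 0.76 without ko replicate 1, 0.94 without ko replicate 2, 0.67 without wt replicate 3 and 0.83 without the last 2 together, the libraries with lymph node RNA. These medians were added after the data had been seen.

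In iBAT the genotypes lay closer together. Acta2 stood at 42.7, 45.6 and 44.3 CPM in wt and 51.6, 40.5 and 46.4 CPM in ko, and Tagln at 30.4, 30.01 and 32.6 CPM in wt and 34.1, 32.4 and 29.8 CPM in ko. The genotypes overlapped for all 9 members, beside 2.32% of all genes that were higher in ko without overlap. The log2 differences ran from -0.33 (Cnn1) to 0.72 (Ccn1), 6 of 9 were positive and 0 passed the test (edgeR, adjusted p = 1 for each, 0% of all genes called, 238 genes and 0 members at an unadjusted p under 0.05). DESeq2 called 13 genes of all and 0 members. Ccn2 stood at 8.22 CPM in ko replicate 1 and at 3.37 to 4.70 CPM in the other 5 libraries.

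Over iBAT and iWAT together 0 members passed (edgeR, 0.00534% of all genes called, 340 genes and 1 member at an unadjusted p under 0.05, 8 genes and 0 members called by DESeq2). Both tissues came from the same 3 wt and 3 ko mice, and this fit counts their libraries as independent, so its SE and p-values may be too small. Ccn1 had the largest difference there, 0.85 ± 0.31 on the log2 scale (edgeR, adjusted p = 1). Its levels were 16.8 ± 5.14 CPM in wt and 27.6 ± 14.5 CPM in ko iBAT (mean ± SD, n = 3). No member passed the test of a difference in genotype effect between iWAT and iBAT (interaction, 0% of all genes called by edgeR, 250 genes and 0 members at an unadjusted p under 0.05, 3 genes and 0 members called by DESeq2), with interaction values of 0.27 to 1.32 on the log2 scale and an SE of 0.47 to 1.26. Of the other smooth muscle, SRF, CCN, YAP and TEAD genes, none passed in either tissue. The 20 other smooth muscle genes had a median log2 difference of 0.50 in iWAT, where 14 of them were highest in ko replicate 1, the library with skeletal muscle RNA, in which 17.8% of all genes were highest. Without that library their median was 0.28, and 16 of the 20 differences were positive in place of 20. The part of skeletal muscle RNA in these differences was not tested.

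**Figure D4:**
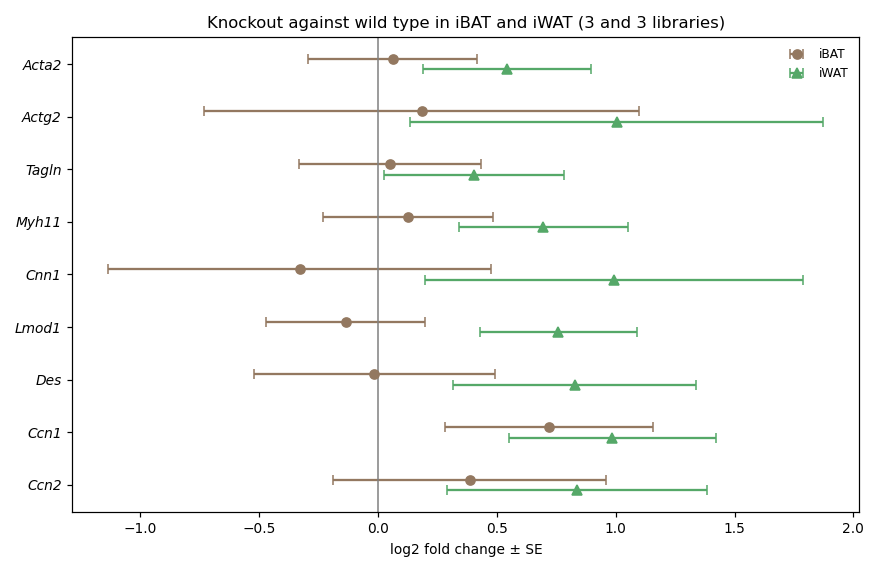
Log2 fold change of ko against wt ± SE (horizontal axis) for the 9 genes in iBAT (circles) and iWAT (triangles), 3 libraries per group. All 9 triangles lie above 0, from 0.40 for Tagln to 1.0 for Actg2, and no value passed the adjusted threshold.

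The tissues were then compared in a model with tissue and genotype. The eWAT libraries enter every contrast through the genotype term, the scaling and the estimate of the spread. Between iBAT and iWAT, 3 of 9 members passed an adjusted p of 0.05 (edgeR), beside 54.3% of all genes. Ccn2 was lower in iBAT, where it had a median of 3.97 CPM (3.37 to 8.22), than in iWAT with 11.9 CPM (6.33 to 18.1). The difference was -1.31 ± 0.39 on the log2 scale, or 2.47-fold (edgeR, adjusted p = 0.00980, n = 6 and 6). Tagln was lower in iBAT by 0.82 ± 0.29 on the log2 scale (edgeR, adjusted p = 0.0254), with a median of 31.4 CPM (29.8 to 34.1) in iBAT and 53.8 CPM (42.8 to 84.9) in iWAT. The libraries of both tissues did not overlap for Tagln, and for Ccn2 they overlapped by iBAT ko replicate 1. Tagln was not called without iBAT ko replicate 1, 2 or 3, iWAT ko replicate 3 or iWAT wt replicate 1, each left out alone (adjusted p = 0.0515 to 0.0613), and Ccn2 was not called in wt libraries only (-1.10, adjusted p = 0.149). Without all libraries of ko mouse 3, Tagln was not called either (-0.68, edgeR, adjusted p = 0.0700).

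Des went the other way. Its median was 73.0 CPM (55.1 to 87.4) in iBAT and 22.8 CPM (17.8 to 99.1) in iWAT, the top value being ko replicate 1 with skeletal muscle RNA. The difference was 0.99 ± 0.36 on the log2 scale (1.99-fold, edgeR, adjusted p = 0.0268). Without iBAT wt replicate 1 or 2, iWAT wt replicate 1 or 2, or iWAT ko replicate 2 or 3, each left out alone, its adjusted p was 0.0506 to 0.0645, and it was 0.0754 without all libraries of ko mouse 2. With libraries scaled to their totals alone, the difference was 0.17 (edgeR, adjusted p = 0.661). This scaling moved the median of all genes from -0.14 to -0.95 between iBAT and iWAT. Acta2, at 40.5 to 51.6 CPM in iBAT and 46.0 to 108 CPM in iWAT, did not pass (-0.68 ± 0.30, edgeR, adjusted p = 0.0677), but passed without eWAT ko replicate 2 (-0.70, adjusted p = 0.00267).

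Between iBAT and eWAT, 6 of 9 members passed (edgeR), beside 54.6% of all genes. The eWAT libraries also entered the choice of the genes, so the p-values of this contrast are not an independent test of the members. The largest difference was that of Ccn2, with a median of 3.97 CPM in iBAT and 32.2 CPM (9.51 to 80.0) in eWAT, so that all iBAT libraries lay below all eWAT libraries. It was -2.90 ± 0.41 on the log2 scale (7.45-fold, edgeR, adjusted p = 1.51e-05). Tagln (-1.31 ± 0.30, adjusted p = 0.00136), Lmod1 (-1.18 ± 0.26, adjusted p = 0.00105), Acta2 (-1.19 ± 0.31, adjusted p = 0.00378) and Myh11 (-0.91 ± 0.28, adjusted p = 0.0111) were lower in iBAT by edgeR, and Des was higher (1.22 ± 0.36, adjusted p = 0.00866). In wt libraries only, the differences of Acta2 (-0.41, adjusted p = 0.184) and Myh11 (-0.33, adjusted p = 0.313) did not pass. Des did not pass with library totals (0.34, adjusted p = 0.376).

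Between iWAT and eWAT, 2 of 9 members passed (edgeR), beside 10.2% of all genes. Ccn2 was lower in iWAT by 1.59 ± 0.38 on the log2 scale (3.01-fold, edgeR, adjusted p = 0.0156), and Lmod1 by 0.84 ± 0.25 (edgeR, adjusted p = 0.0456). Lmod1 had a median of 6.74 CPM (5.01 to 12.3) in iWAT and 11 CPM (7.90 to 29.5) in eWAT. Neither was called without ko mouse 2 (Ccn2, -1.29 with adjusted p = 0.0943, and Lmod1, -0.48 with adjusted p = 0.214) nor in wt libraries only (Ccn2, -1.35 with adjusted p = 0.309, and Lmod1, -0.80 with adjusted p = 0.148). Without eWAT wt replicate 1, the adjusted p was 0.0566 for Ccn2, and Lmod1 missed the threshold in 15 of the 18 fits that left out 1 library (adjusted p = 0.0523 to 0.118). With the mouse as a block, Ccn2 was called (adjusted p = 0.0204) and Lmod1 was not (adjusted p = 0.104). Since eWAT entered the choice of the genes, the contrasts with eWAT share its high libraries, and their p-values are not an independent test.

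**Figure D5:**
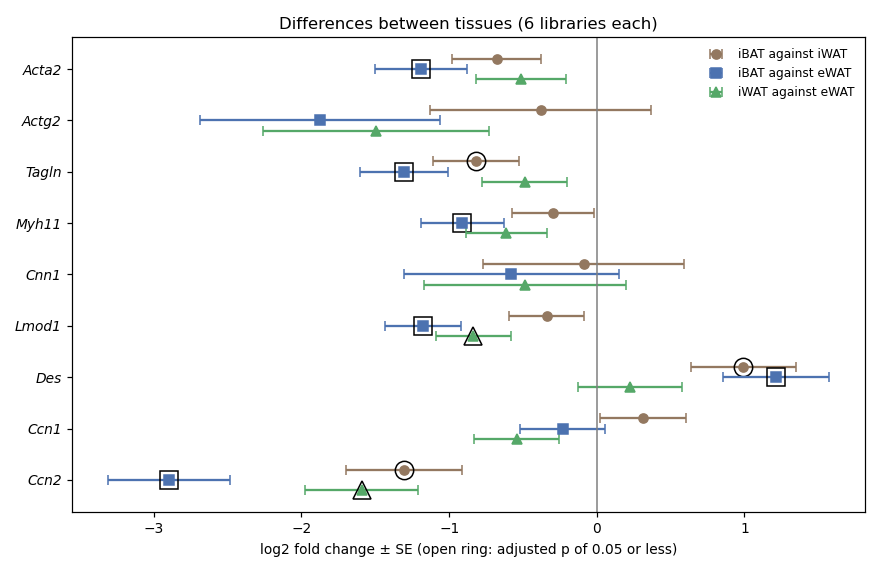
Log2 fold change ± SE (horizontal axis) of the 9 genes between tissues, 6 libraries each, for iBAT against iWAT, iBAT against eWAT and iWAT against eWAT, with an open outline around values with an adjusted p of 0.05 or less. Ccn2 has the lowest values, -2.90 in iBAT against eWAT and -1.59 in iWAT against eWAT, and Des is the gene with called values above 0. The eWAT libraries also entered the choice of the genes.

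The other lists were also compared between tissues, where 54.6% of all genes were called between iBAT and eWAT and 54.3% between iBAT and iWAT, in either direction. Of the 20 other smooth muscle genes, 13 were lower and 0 higher in iBAT than in eWAT (edgeR, median log2 difference -1.12, beside -0.17 over all genes), and 8 were lower and 2 higher in iBAT than in iWAT. Of the 3 other CCN genes tested, 3 were lower in iBAT than in either white tissue. Of the 17 genes tested of the YAP and TEAD signature, 11 were lower and 1 higher in iBAT than in eWAT. Between iBAT and eWAT, 1 of the 9 pericyte genes was lower and 1 higher, 3 of the 7 endothelial genes were lower and 1 higher, and 6 of the 6 fibroblast genes were lower. Differences between these lists were not tested.

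Levels per length of transcript place the members in order within a tissue. In iBAT the median was 20.5 CPM per kb of exon for Acta2, 19.4 for Des, 15.8 for Tagln, 9.33 for Ccn1 and 6.5 for Myh11. It was 1.44 CPM per kb for Lmod1, 1.39 for Ccn2, 1.33 for Cnn1 and 0.63 for Actg2. In eWAT the order was Acta2 (39.4 CPM per kb), Tagln (26.2), Ccn1 (13.4), Ccn2 (11.2), Myh11 (10.7) and Des (7.17), followed by Lmod1 (2.78), Cnn1 (1.03) and Actg2 (0.866). Within libraries, 2 of the 8 steps between neighbours in the eWAT order held in all 6 libraries, Tagln above Ccn1 and Des above Lmod1, although the ranges of all neighbours overlapped. In iBAT 2 of the 8 steps held in all 6 libraries, Myh11 above Lmod1 and Cnn1 above Actg2, and for these the ranges did not overlap either. The other steps turned in at least 1 library. Actg2 had the lowest median in all 3 tissues.

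The members were also compared among themselves over the 18 libraries, after the mean of each tissue had been removed from the log2 CPM. The 6 smooth muscle genes other than Des gave 15 pairs with correlations of 0.74 to 0.97 and a median of 0.88. Without eWAT ko replicate 2 the median was 0.70 and the range 0.41 to 0.92. Des stood apart, with 0.45 at most. Ccn1 and Ccn2 correlated at 0.66, and Acta2 with Ccn2 at 0.82 (0.80 without eWAT ko replicate 2). These are descriptions, since libraries of 1 mouse share their source and libraries differ in depth and in the tissue carried along.

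Among the genes with a mean of at least 5 CPM, those most like the mean of the 7 smooth muscle members were Myl9 (0.83), Arhgef25 (0.82), Pgm5 (0.75), Hoxc10 (0.73) and Sorbs2 (0.73). Myl9 is a contractile gene itself and Pgm5 belongs to muscle adhesion sites. For Ccn1 the closest were Ppp1r12b (0.71), Vgll4 (0.69), Gm6206 (0.68), Zfp651 (0.68) and Fos (0.68), and for Ccn2 they were Stbd1 (0.81), Fblim1 (0.79), Myl9 (0.79), Palld (0.79) and Synpo (0.77). Without eWAT ko replicate 2, 1 of the 5 genes closest to the smooth muscle mean was kept, 0 of the 5 closest to Ccn1 and 1 of the 5 closest to Ccn2. Without eWAT ko replicate 3, 3, 0 and 2 of the 5 were kept.

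Promoter sequences were looked at for the motifs of the factors named above, since the members moved together in eWAT ko replicate 2. The RefSeq table (GRCm38.p6) held the 250 bases before the start of 5 of the 9 genes, namely Acta2, Cnn1, Lmod1, Des and Ccn1. The SRF site was searched as the CArG box, CC and GG around 6 bases that are each A or T, on both strands. None of the 5 windows held it, beside 1.47% of all 32851 promoters. With 1 base of the core left free, a setting added after that count was seen, Acta2 held 2 matches, and 8.59% of all promoters held at least 1. Distances are counted from the RefSeq start of each gene. The matches start 84 and 34 bases before the RefSeq start of Acta2 and are shown in capitals in 30 bases each, on the minus strand at chr19:34255438-34255467 and chr19:34255388-34255417.
Acta2 distal match: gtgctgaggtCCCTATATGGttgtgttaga
Acta2 proximal match: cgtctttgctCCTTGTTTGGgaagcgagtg

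The TEAD motif GGAATG was found on either strand in the windows of Acta2, Lmod1 and Ccn1, 3 of 5, beside 12.6% of all promoters. It lay 146, 130 and 103 bases before the respective RefSeq start. For Acta2 that start lies inside exon 1 of the GENCODE M21 gene (chr19:34255290-34255590), so that the 3 matches named for Acta2 fall within this annotated exon. The upstream windows of Lmod1 (plus strand, chr1:135324563-135324806) and Ccn1 (minus strand, chr3:145649986-145650235) are shown with the motif or its reverse complement in capitals, since they stand for a contractile and a CCN gene.
Lmod1: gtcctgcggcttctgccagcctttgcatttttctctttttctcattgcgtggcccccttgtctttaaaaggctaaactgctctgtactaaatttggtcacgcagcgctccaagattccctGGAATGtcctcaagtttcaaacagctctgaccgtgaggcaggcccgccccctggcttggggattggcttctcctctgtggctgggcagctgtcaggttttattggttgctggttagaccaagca
Ccn1: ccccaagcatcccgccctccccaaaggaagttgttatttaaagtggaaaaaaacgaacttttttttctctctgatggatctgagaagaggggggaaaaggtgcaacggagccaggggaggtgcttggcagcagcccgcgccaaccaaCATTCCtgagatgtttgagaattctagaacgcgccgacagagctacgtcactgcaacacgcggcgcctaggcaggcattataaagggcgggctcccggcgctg
A match is a string of letters and not a measured binding site. No binding was measured in these libraries.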

How the data were processed

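RNA of 3 tissues from 6 mice was sequenced after poly(A) selection. The authors filtered reads using cutadapt, estimated gene levels with Salmon and GENCODE M22 (GRCm38), alone or joined with RNAcentral, and the deposited table holds unnormalised estimated counts per gene as whole numbers. The strand setting and the step to genes are not given in the sources used here.

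Groups were taken from the labels. Counts were scaled by TMM, filtered by filterByExpr and fitted in edgeR 4.0.16 (R 4.3.3) with its quasi-likelihood F-test, adjusted by Benjamini-Hochberg over all 18728 genes tested (threshold 0.05). Tissue contrasts came from an additive model of tissue and genotype, and genotype contrasts from 1 mean per group, with all 18 libraries. SE was derived from the log2 fold change and F. DESeq2 1.42.0, limma 3.58.1 (voom), other scalings, filters, blocks and left-out libraries or mice were alternatives. Correlations used log2 CPM with a prior count of 2. A count of 0 allows up to 3 counts, or 0.0728 to 0.235 CPM, for counting error only.

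Libraries with the same genotype and number came from the same mouse, by the identifiers in the labels, which pairs the tissues. Each mouse is 1 replicate. Of the 50-base windows of Acta2 0.326% and of Myh11 0.340% were shared with other genes, and of the other members 0. Positions are from GENCODE M21 (GRCm38). The members and the gene lists were chosen with earlier results of these data known. Named beside the members were, per list, up to 4 genes with the highest mean CPM, list genes called between genotypes in iBAT or iWAT, and the 5 genes most correlated with the smooth muscle mean, Ccn1 and Ccn2. The test scripts were checked on simulated data.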

Additional observations from a re-analysis of the deposited data

Results flagged for a closer look

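For 27 combinations of gene and tissue, the highest or lowest of 6 libraries was examined, whichever lay further from its neighbour. Its gap over the range of the tissue exceeded Dixon's critical value for 6 samples in 10 (7 in eWAT, 2 in iWAT and 1 in iBAT). In all 10 it was the highest library, and the values were CPM without a log. Chance gives about 1 in 20, but the eWAT values are among those that chose the genes and are a description, not set against chance. In eWAT, ko replicate 2 was such a value for all 7 smooth muscle genes, with a gap over range of 0.752 for Acta2, 0.811 for Actg2, 0.860 for Tagln, 0.765 for Myh11, 0.770 for Cnn1, 0.763 for Lmod1 and 0.686 for Des. It was not for Ccn1 and Ccn2. The 7 values come from 1 library and are not independent of each other. In iWAT, Tagln was set apart in ko replicate 3 (0.716). Des was set apart in iWAT ko replicate 1 (0.697), the library in which 13 skeletal muscle genes summed to 5216 CPM. In iBAT, Ccn2 was set apart in ko replicate 1 (0.725). Causes were not tested.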

How the results depend on the processing

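Over all alternatives, 6 called members became 4 to 7 between iBAT and eWAT, 3 became 1 to 5 between iBAT and iWAT and 2 became 0 to 2 between iWAT and eWAT, while the genotype contrasts in iBAT and iWAT and their interaction stayed at 0 members. Leaving out 1 library gave 6 to 7, 1 to 4 and 0 to 2. The count between iBAT and iWAT was 1 without iWAT ko replicate 3 or iWAT wt replicate 1 and 5 with library totals. The count between iWAT and eWAT was 0 without eWAT wt replicate 1, 0 without ko mouse 2, 0 in wt libraries only and 1 without the filter. With the mouse as a block it was 1, and the block changed no other call. Of 5 genes most like the smooth muscle mean, 2 were kept without centring and 1 to 3 without eWAT ko replicate 2 or 3 (for Ccn1 0, and for Ccn2 1 to 2, over these settings). With 1 base of the CArG core free, 1 promoter matched in place of 0.

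Replicate numbers were not taken as pairs of wt and ko mice. The mice are described as litter mates without saying which of them share a litter, and deviations of same-numbered libraries correlated at -0.47 to 0.55. A block on the number called 0 members and turned Des in iBAT to 0.0054 (log2). Of 1550 values for single genes, 1450 kept their direction and side of the threshold, 39 turned, 40 lost and 12 gained the call, and 9 untested values moved. No value that turned had passed the threshold. In wt libraries only, Acta2 (iWAT against eWAT) was 0.063, Actg2 0.13 (iBAT against eWAT) and 0.20 (iWAT against eWAT), Cnn1 1.21 (iBAT against eWAT), 0.38 (iBAT against iWAT) and 0.83 (iWAT against eWAT), and Lmod1 0.078 (iBAT against iWAT). Without ko mouse 2, Cnn1 was 0.55 both for iBAT and for iWAT against eWAT, and Tagln 0.038 (iWAT against eWAT). Without ko mouse 3, Cnn1 was 0.23, and with the mouse block 0.058 (iBAT against iWAT). With voom, Acta2 was -0.027 (ko against wt, iBAT), the interaction of Ccn1 -0.27 and Des -0.24 (iWAT against eWAT). With library totals, Ccn1 was -0.47 (iBAT against iWAT) and Tagln -0.0041 (ko against wt, iBAT).

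Leaving out 1 library at a time also turned ko against wt in iBAT for Acta2 (-0.032 to 0.15), Actg2 (-0.014 to 0.32), Ccn2 (-0.089 to 0.58), Des (-0.18 to 0.15) and Tagln (-0.0018 to 0.10). It turned Actg2 (-0.61 to 0.13) and Cnn1 (-0.27 to 0.14) between iBAT and iWAT, Cnn1 between iBAT and eWAT (-0.96 to 0.37), and Cnn1 (-0.82 to 0.56), Des (-0.31 to 0.42) and Tagln (-0.62 to 0.0067) between iWAT and eWAT. Des ran from -0.27 to 1.31 in iWAT, from -0.14 to 0.65 over iBAT and iWAT and from -0.25 to 1.33 in the interaction, and the interaction of Ccn1 from -0.037 to 0.74. The causes were not tested. Actg2 and Cnn1 could not be fitted with at least 10 counts in every library.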
